A study of Homo sapiens with 6 samples.

Results

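Epithelial identity and its regulators were followed through 10 genes in C4-2 cells treated with the solvent DMSO or with a supraphysiological androgen level (SAL, 1 nM R1881 for 72 h). The genes were chosen by their symbols and are CDH1, CDH2, VIM, EPCAM, KRT8, KRT18, SNAI2, ZEB1, TWIST1 and ESRP1, 10 of the 55765 gene symbols in the count files. C4-2 is an established castration-resistant prostate cancer line derived from LNCaP, and R1881 (methyltrienolone) is a stable synthetic androgen. Both groups were grown in DMEM with fetal bovine serum and differed, as far as the labels say, by the agent alone, with 3 libraries each, numbered 1 to 3. All libraries come from 1 cell line, so the p-values say nothing of the spread between tumors. With the replicate number as a block, they measure how the change varied between same-numbered pairs of libraries. The full spread between libraries enters only where the block is left out.

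Epithelial cells are held together by junctions built on E-cadherin and carry keratin filaments, whereas mesenchymal cells carry vimentin filaments and often N-cadherin. In the epithelial-mesenchymal transition (EMT), transcription factors of the SNAI, ZEB and TWIST families repress epithelial genes such as CDH1 by binding E-box sequences. The splicing factor ESRP1 maintains the epithelial isoforms of many transcripts. Keratins 8 and 18 pair with each other to form the filaments of simple epithelia and are the standard keratins of luminal prostate cells.

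After removal of rRNA genes, the libraries held from 6931042 to 9776990 counts, and rRNA had taken from 11.9% to 27.8% of the gene counts. The replicate number was used as a block in the test, since same-numbered libraries deviated together. The androgen-induced gene KLK3 (prostate-specific antigen) rose by 1.21 on the log2 scale (edgeR adjusted p = 3.33e-07). Of 11 prostate luminal markers, all were tested and 7 rose, with a summed level from 4114 to 7473 CPM in DMSO and from 7387 to 12906 in SAL. CPM are TMM-normalized counts relative to library size. The 9 basal markers summed to 97.1 to 150 CPM in DMSO and 94.0 to 165 in SAL, of which only DST and ITGA6 could be tested, while KRT5 was at 0 in all libraries and TP63 had at most 1 count. The 8 fibroblast markers summed to 4.21 to 12.7 CPM in DMSO and 3.20 to 11.1 in SAL, with COL1A2 at 0, and the 8 neuroendocrine markers summed to 5.70 to 14.6 and 5.12 to 9.32 CPM. No basal, fibroblast or neuroendocrine marker that could be tested (2, 1 and 3 genes) passed the threshold. Since these are bulk libraries, more cells of a kind and more RNA per cell cannot be told apart.

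SAL raised the keratins KRT8 and KRT18 and the EMT transcription factor SNAI2, and left CDH1, EPCAM, ESRP1 and VIM without a change that passed the test. Of the 10 genes, 7 passed the filter on low counts, each in all 6 libraries, and CDH2, ZEB1 and TWIST1 did not. Among the 7 tested, 3 were up-regulated and 0 down-regulated at an edgeR quasi-likelihood adjusted p under 0.05. In the whole table, 11.5% of the 16835 genes tested were called up and 9.37% down (20.8% in either direction). The 10 genes were chosen with earlier results of these data known, so these shares are given for description only. The levels of the same 3 genes did not overlap between the groups, where 3.78% of all tested genes lay entirely above DMSO, 3.73% entirely below and 7.51% either way. For such a separation of 3 against 3 libraries, the two-sided exact permutation p that ignores the pairing is 0.1, the smallest possible. With the pairing kept, the smallest exact p this design can give is 0.25. The plot of levels by library shows these 3 genes and the others side by side.

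**Figure D1:**
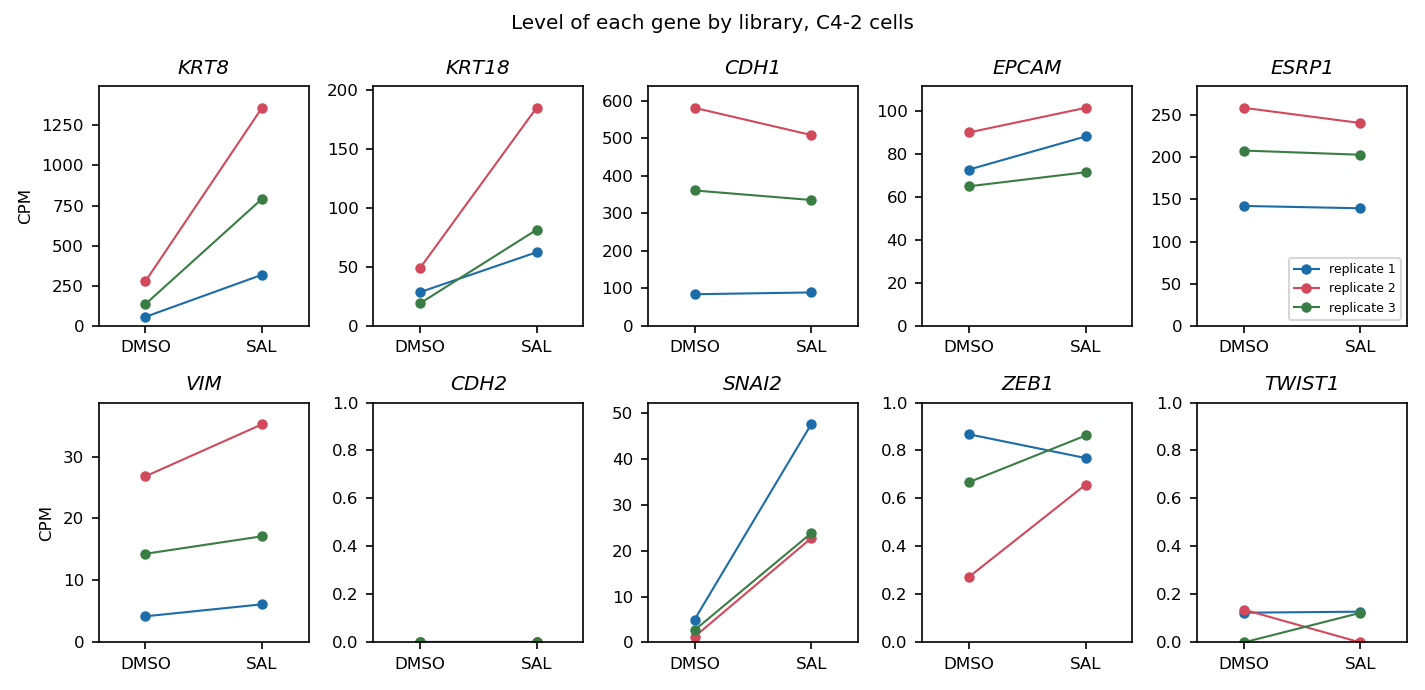
Level of each of the 10 genes (CPM, linear axis from 0) in the 3 DMSO and 3 SAL libraries; lines join libraries with the same replicate number. KRT8, KRT18 and SNAI2 are higher in every SAL library than in any DMSO library, while CDH1, VIM and ESRP1 differ far more between replicate numbers than between treatments.

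KRT8 encodes the type II keratin of simple epithelia, and per exon length it had the highest level of the 10 genes in each SAL library. It had 56.1, 277 and 135 CPM in DMSO libraries 1, 2 and 3, and 319, 1359 and 791 CPM in the SAL libraries. Each SAL library was above every DMSO library, and the lowest SAL value came from replicate 1, which also had the lowest DMSO value. The mean rose from 156 ± 112 to 823 ± 521 CPM (SD, n = 3), a fold of 5.45 (95% interval 4.71 to 6.32). On the log2 scale KRT8 rose by 2.45 (standard error 0.10) at an edgeR adjusted p of 1.61e-10, and by 2.50, 2.29 and 2.55 in pairs 1, 2 and 3. The wide SD of the levels therefore lay between replicate numbers, and the change was nearly the same in each pair.

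KRT18 encodes the type I partner of keratin 8. Its levels were 28.6, 49.0 and 19.1 CPM in DMSO and 62.5, 185 and 81.6 CPM in SAL, again without overlap. The mean rose from 32.2 ± 15.2 to 110 ± 66.0 CPM (SD, n = 3), with a log2 fold change of 1.71 (standard error 0.17, edgeR adjusted p = 9.56e-05). The pairs were less even than for KRT8, at 1.12, 1.91 and 2.08. Within each library the ratio of KRT8 to KRT18 counts was 1.96, 5.66 and 7.07 in DMSO and 5.10, 7.34 and 9.70 in SAL. The ratio was higher in SAL than in the DMSO library of the same number in all 3 pairs, but the groups overlapped.

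Both genes lie next to each other on chromosome 12 in GRCh37 (the assembly of hg19), KRT8 on the minus strand from 53290971 to 53343738 and KRT18 on the plus strand from 53342655 to 53346690. Their annotated exons overlap by 525 bp on opposite strands, 7.63% of the exon bases of KRT8 and 17.1% of those of KRT18. Reads were counted without regard to strand, so reads in this overlap could not be assigned to either gene by strand. On the far side of KRT18, the nearest tested genes EIF4B and SPRYD3 had log2 fold changes of -0.11 (edgeR adjusted p = 0.432) and 0.13 (adjusted p = 0.457), and neither passed the test. On the KRT8 side, the nearest tested genes were AC078864.2 and AC078864.1, 783 and 786 kb away. Both were up-regulated, with log2 fold changes of 7.76 (standard error 0.88, edgeR adjusted p = 3.09e-05) and 7.34 (standard error 0.96, adjusted p = 0.000106). The value of 7.76 was the largest of all 16835 genes tested. Whether either gene passed the filter only through the SAL libraries was not examined, and a link to the keratins was not tested. Only 33529 of the 55765 symbols had a position in the annotation used here, so other tested genes may lie closer on either side.

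Processed copies of both keratin genes are spread over the genome, and reads can be shared between a gene and its copies. The stretches below show how close KRT18P3, the tested KRT18 copy with the most counts, is to its parent over 75 bases of the coding sequence, with the bases that differ in capitals. They cover bases 57 to 131 of the KRT18 transcript and differ at 6 bases.
KRT18: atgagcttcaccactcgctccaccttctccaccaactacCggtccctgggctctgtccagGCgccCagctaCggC
KRT18P3: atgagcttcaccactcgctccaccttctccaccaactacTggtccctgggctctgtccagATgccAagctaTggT
KRT8P33 (minus strand, chromosome 5, 122736616 to 122738038) is 95.78% identical to the KRT8 transcript over 1422 aligned bases. KRT18P3 (minus strand, chromosome 20, 22713440 to 22714727) is 91.77% identical to the KRT18 transcript over 1288 bases. Of all 75-base windows of the KRT8 transcript, 18.8% occur without a mismatch in the transcript of another annotated gene, and of those of KRT18, 6.5% do.

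Of the reads counted on the keratin genes and their copies, a large part was counted on the copies, and some copies moved with the parent. The 50 KRT8 pseudogene symbols together had 386, 961 and 487 counts in DMSO and 1074, 4172 and 2288 in SAL, between 25.2% and 46.0% of the counts of the gene and its copies. The 67 KRT18 pseudogene symbols had 186, 394 and 218 counts in DMSO and 381, 962 and 635 in SAL, between 36.3% and 60.4%. Of 9 KRT8 copies tested, 5 were up-regulated and 0 down-regulated, and of 10 KRT18 copies, 4 and 0. The called KRT8 copies were 91.78% to 97.1% identical to KRT8 with log2 fold changes from 1.76 to 2.50, and the 4 that were not called were 88.89% to 91.73% identical with -0.58 to -0.29. For KRT18 the called copies were 91.88% to 95.87% identical (log2 fold change 1.33 to 2.07) and the 6 others 84.96% to 91.98% (-0.49 to 1.42). These identity ranges overlap, and KRT18P3, shown above, was among the 6 not called (log2 fold change 1.42, edgeR adjusted p = 0.109). With the copies added to their parent before the fit, the log2 fold change was 2.24 for KRT8 (edgeR adjusted p = 5.75e-10) and 1.45 for KRT18 (adjusted p = 4.62e-07). How many of the reads counted on the copies came from the parent genes was not tested.

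**Figure D2:**
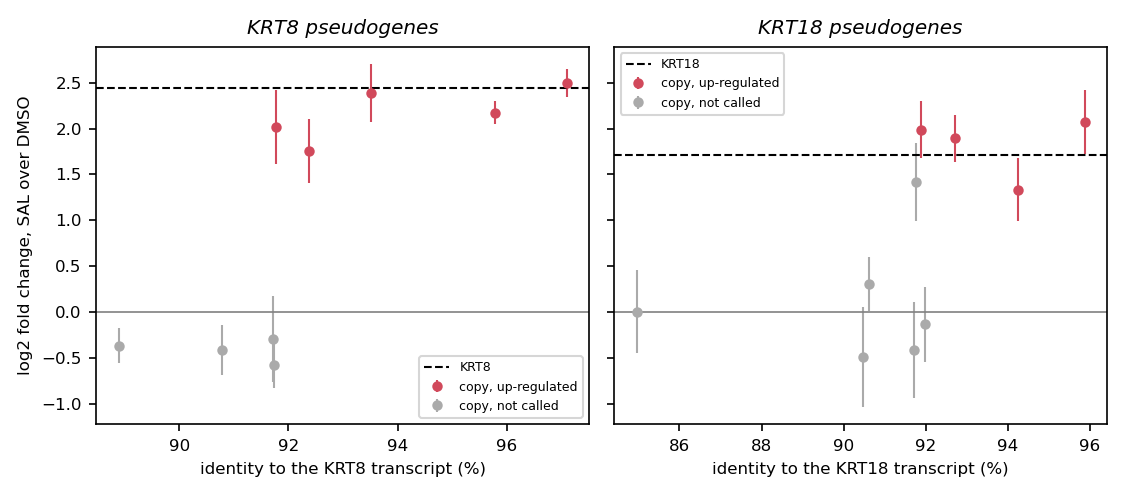
Log2 fold change (SAL over DMSO, error bars ± standard error) of each tested KRT8 pseudogene (left, 9 copies) and KRT18 pseudogene (right, 10 copies) against its percent identity to the parent transcript; the dashed line is the parent gene. The up-regulated copies (5 and 4) lie near the dashed line and most of the copies not called lie near or below 0.

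Of the other keratins, KRT19 was the gene that rose. KRT19, a small type I keratin of simple epithelia, had 26, 13 and 15 counts in DMSO and 127, 161 and 110 in SAL. The groups did not overlap, and KRT19 rose by 2.75 on the log2 scale (standard error 0.23) at an edgeR adjusted p of 5.72e-07. Of the 15 keratins in this list, 2 could be tested and KRT19 alone was called. KRT10, a keratin of stratified epithelia, was the other (log2 fold change -0.19, adjusted p = 0.423). The other 13 had too few counts, and KRT4, KRT5, KRT6A, KRT13, KRT16 and KRT17, which mark stratified or basal epithelia, had 0 counts in all 6 libraries.

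SNAI2 (SLUG), a zinc finger repressor of the SNAI family that binds E-boxes, had the largest relative change of the 10 genes and started from a low level. Its locus is on chromosome 8 (minus strand, 49830157 to 49834299). The libraries held 40, 9 and 20 counts in DMSO and 371, 207 and 193 in SAL, or 4.96, 1.23 and 2.67 against 47.5, 22.7 and 23.8 CPM. The groups did not overlap, and the lowest SAL library was far above the highest DMSO library. The mean rose from 2.95 ± 1.88 to 31.3 ± 14.0 CPM (SD, n = 3), a fold of 10.7 (95% interval 7.96 to 14.5) and a log2 fold change of 3.42 (standard error 0.20, edgeR adjusted p = 9.75e-09). Pairs 1, 2 and 3 gave 3.20, 3.95 and 3.04. Among all 16835 tested genes, the change of SNAI2 ranked 40 from the top, that of KRT8 95 and that of KRT18 208.

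Both of the other EMT transcription factors among the 10 genes were close to the limit of detection. ZEB1, a zinc finger and homeodomain repressor on chromosome 10 (31607424 to 31818742), had 7, 2 and 5 counts in DMSO and 6, 6 and 7 in SAL. TWIST1, a basic helix-loop-helix factor on chromosome 7 (19060614 to 19157259), had 1, 1 and 0 counts in DMSO and 1, 0 and 1 in SAL. Both were below the filter, and when the filter was left out their log2 fold changes were 0.38 (edgeR adjusted p = 0.831) and -0.07 (adjusted p = 0.997). At this depth a count of 0 allows up to 3 counts, a level between 0.329 and 0.410 CPM depending on the library, so small changes of these genes were not detectable. ZEB1-AS1, which overlaps ZEB1 by 396 bp on the other strand, had 27 to 63 counts.

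Of 18 further EMT transcription factors, 12 were tested, of which 3 rose and 0 fell, and the median log2 fold change was 0.12 beside -0.0011 over all genes. These were SOX4 (0.37, edgeR adjusted p = 0.0132), SOX9 (0.65, adjusted p = 0.0184) and TCF4 (0.36, adjusted p = 0.0495), all of them expressed in DMSO already. Without replicate 3 none of them was called, with adjusted p of 0.260, 0.261 and 0.324, and without replicate 1 TCF4 had 0.174. With DESeq2 only SOX4 was called (adjusted p = 0.0442), with 0.0526 for SOX9 and 0.221 for TCF4, and TCF4 had 0.0564 by edgeR with the size factors of DESeq2. SNAI1, the closest relative of SNAI2 and named after its values were seen, had 5, 11 and 12 counts in DMSO and 1, 15 and 2 in SAL (log2 fold change -0.95, adjusted p = 0.295). ZEB2, TWIST2 and FOXC2 had 0 counts in all libraries.

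CDH1, which encodes E-cadherin, the adhesion molecule of the adherens junction, had no change that passed the test. Its locus is on chromosome 16 (plus strand, 68771195 to 68869440). Its levels were 84.5, 582 and 361 CPM in DMSO and 89.3, 509 and 336 CPM in SAL, with full overlap of the groups. Mean levels were 342 ± 249 CPM with DMSO and 311 ± 211 CPM with SAL (SD, n = 3). The difference on the log2 scale was -0.08 (standard error 0.09, 95% interval -0.28 to 0.12) with an edgeR adjusted p of 0.615. Pair 1 went up by 0.08, and pairs 2 and 3 had -0.19 and -0.11. In fold terms the interval of this fit, with the replicate block, runs from 0.825 to 1.09. The folds fitted for the keratins and SNAI2 lie outside it. Without the block the log2 fold change of CDH1 was -0.14 with a standard error of 0.77, so the narrow interval depends on the block.

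EPCAM, an epithelial adhesion molecule on chromosome 2 (47572297 to 47614740), had 72.7, 90.0 and 64.9 CPM in DMSO and 88.1, 101.4 and 71.5 in SAL. The groups overlapped although each SAL library was above the DMSO library of its number, by 0.28, 0.17 and 0.14 on the log2 scale. The log2 fold change of 0.20 (standard error 0.09) did not pass the test (edgeR adjusted p = 0.166). ESRP1, the epithelial splicing regulator on chromosome 8 (95653302 to 95719694), had 142, 259 and 208 CPM in DMSO and 139, 241 and 203 in SAL. The difference of ESRP1 was -0.06 on the log2 scale (standard error 0.09, edgeR adjusted p = 0.722, fold interval from 0.842 to 1.10), and the groups overlapped fully.

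VIM, which encodes the mesenchymal filament protein vimentin, was low and did not pass the test. The levels were 4.21, 26.8 and 14.3 CPM in DMSO and 6.15, 35.2 and 17.1 in SAL, from 34 to 196 and from 48 to 321 counts. The 3 pairs gave 0.52, 0.39 and 0.26, for a fitted log2 change of 0.38 (standard error 0.15, 95% interval 0.05 to 0.70, edgeR adjusted p = 0.102). The groups overlapped, and the adjusted value missed the threshold although the interval of the single gene did not include 0. VIM lies on chromosome 10 (17270240 to 17279592), and VIM-AS1 overlaps 12.7% of its exon bases on the other strand with 1 to 10 counts. CDH2, which encodes N-cadherin on chromosome 18 (25512843 to 25757910), had 0 counts in all 6 libraries. The ratio of CDH1 to VIM counts was 20.1, 21.7 and 25.3 in DMSO and 14.5, 14.5 and 19.6 in SAL. The SAL ratios all lay below the DMSO ratios, although neither gene passed the test on its own. This ratio was not among the planned tests, and how many other gene pairs separate this way was not counted. For 3 against 3 libraries without the pairing, such a separation gives the smallest two-sided exact permutation p possible, 0.1. With the pairing kept, the smallest exact p is 0.25. The ratio of KRT8 to CDH1 counts was 0.664, 0.476 and 0.374 in DMSO and 3.57, 2.67 and 2.36 in SAL.

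**Figure D3:**
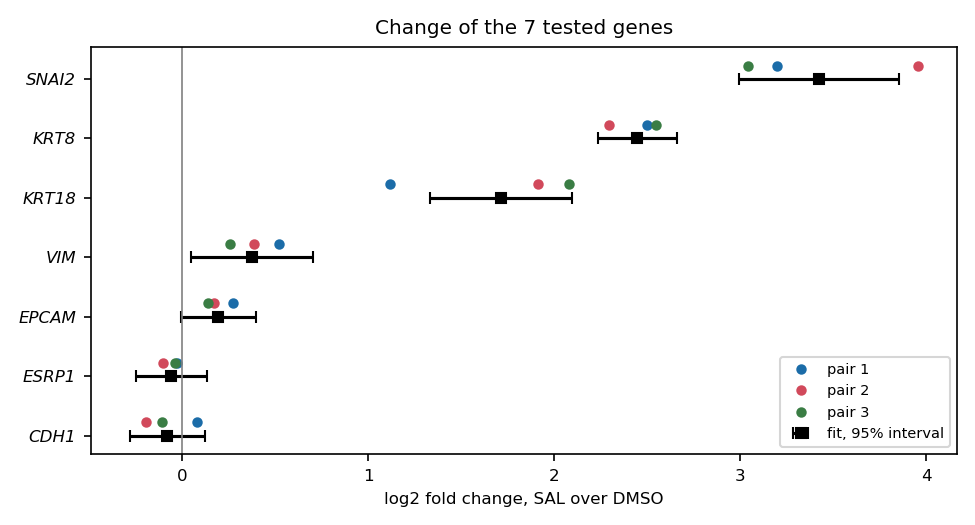
Log2 fold change (SAL over DMSO) of the 7 tested genes. Squares and bars are the edgeR estimate with a 95% interval derived from the test statistic, and dots are the 3 same-numbered pairs. SNAI2, KRT8 and KRT18 lie at 3.42, 2.45 and 1.71, and the intervals of EPCAM, ESRP1 and CDH1 include 0.

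The 10 genes varied in different ways among the libraries. The replicate number accounted for 99.6% of the variation of the log2 levels of CDH1, 99.1% of that of ESRP1 and 96.4% of that of VIM. The treatment accounted for 64.8% for KRT8, 66.1% for KRT18 and 88.0% for SNAI2. Within DMSO, the highest library exceeded the lowest by 6.88-fold for CDH1 and 6.36-fold for VIM, and by 1.82-fold for ESRP1 and 1.39-fold for EPCAM. CDH1, VIM and KRT8 were lowest in replicate 1 and highest in replicate 2 in both groups, and SNAI2 was highest in replicate 1. Without the replicate block the same 3 genes kept their direction but were not called, with log2 fold changes of 2.40 for KRT8 (edgeR adjusted p = 0.553), 1.77 for KRT18 (adjusted p = 0.645) and 3.40 for SNAI2 (adjusted p = 0.115).

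Per exon length, the order of the genes changed with SAL. In DMSO the mean RPKM was highest for CDH1 (56.4 ± 41.0, SD, n = 3), followed by ESRP1 (41.6 ± 12.0), EPCAM (31.2 ± 5.27), KRT8 (22.7 ± 16.3) and KRT18 (10.5 ± 4.97). Below these stood VIM (2.92 ± 2.19) and SNAI2 (0.900 ± 0.572), and ZEB1 and TWIST1 were under 0.1 RPKM. Neighbours among the first 5 overlapped in their libraries, as did VIM and SNAI2, while KRT18 and VIM, and SNAI2 and ZEB1, did not. In SAL the order was KRT8 (119.6 ± 75.7), CDH1 (51.2 ± 34.7), ESRP1 (39.9 ± 10.5), EPCAM (35.8 ± 6.18), KRT18 (35.7 ± 21.5), SNAI2 (9.55 ± 4.27) and VIM (3.77 ± 2.83). Here neighbours among the first 5 again overlapped, and SNAI2 stood above VIM without overlap at this length. With the canonical transcript's length in place of all annotated exons, a choice made after the data had been seen, KRT8 came first in DMSO as well (87.5 RPKM) and KRT18 came second in SAL (77.6 RPKM), so the rank of the keratins depends on the length used. With that length SNAI2 (21.8, 10.4 and 10.9 RPKM) and VIM (2.85, 16.3 and 7.95 RPKM) overlapped in SAL, with VIM the higher gene in replicate 2.

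Related genes were then counted in 9 lists that cover junctions, keratins, regulators of either state, polarity, TGF-beta signaling, splicing and cadherins. Of 182 genes outside the 10, 125 were tested. Among all 16835 genes tested, 1931 rose (11.5%) and 1577 fell (9.37%), which is also the background for each single list. Of the 125 list genes tested, 32 rose and 15 fell, and their median log2 fold change was 0.10. The lists were chosen with earlier results of these data known, so these counts describe the lists and are no test of them. Without replicate 3 the counts were 11 and 4, and without replicate 2 the number that fell was 8. The plot of the related lists gives each tested gene.

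**Figure D4:**
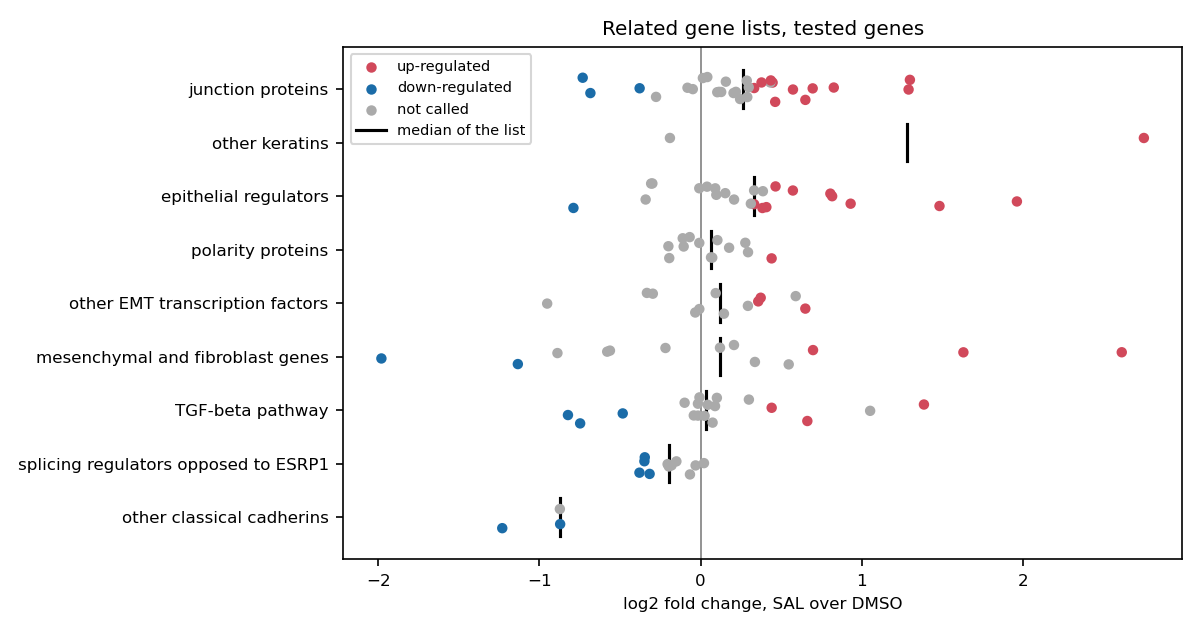
Log2 fold change (SAL over DMSO) of every tested gene of the 9 lists of related genes; red and blue points passed an edgeR adjusted p under 0.05, and the black bar is the median of the list. The lists of junction proteins and epithelial regulators have 11 and 10 up-regulated genes. The list labelled as splicing regulators opposed to ESRP1 has 4 down-regulated and 0 up-regulated genes.

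Among junction proteins, which seal and anchor epithelial cells, 11 of 30 tested rose and 3 fell (median log2 fold change 0.27). Those that rose included the tight junction genes CLDN12 (0.83, edgeR adjusted p = 2.16e-05) and CGN (0.70, adjusted p = 0.000306), which had the smallest adjusted p. Those that fell were the plakophilin family gene PKP4 (-0.73, adjusted p = 5.88e-05), the desmosomal cadherin DSC2 (-0.38, adjusted p = 0.0150) and the tight junction gene OCLN (-0.68, adjusted p = 0.00107). Without replicate 3, 4 rose and 1 fell, and OCLN (adjusted p = 0.0776) and DSC2 (adjusted p = 0.223) were no longer called. Without replicate 2 DSC2 had an adjusted p of 0.0758.

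The list of epithelial regulators holds transcription factors, proteases, splicing factors and other genes tied to the epithelial state, not all of which are regulators. Of 23 tested, 10 rose and 1 fell (median 0.33), led by the Krüppel-like factors KLF5 (1.96, edgeR adjusted p = 1.14e-06) and KLF4 (1.48, adjusted p = 3.47e-05) and the microtubule-binding gene MAP7 (0.82, adjusted p = 2.27e-05). KLF5 had 35, 57 and 67 counts in DMSO and 90, 322 and 316 in SAL, without overlap. The ETS factor ELF3 fell (-0.79, adjusted p = 0.0277), although pair 1 gave 0.13, and it was not called without replicate 2 (adjusted p = 0.179), without replicate 3 (adjusted p = 0.347) or with DESeq2 (adjusted p = 0.0741). ESRP2, the paralog of ESRP1, named after its values were seen, was among those that rose (0.41, adjusted p = 0.00853). Without replicate 3, 4 genes of the list rose and 0 fell. Of 13 polarity genes, which set the apical and basal sides of the cell, PRKCZ alone was called (0.44, adjusted p = 0.0302), and neither DESeq2 (adjusted p = 0.163) nor the fits without replicate 2 (adjusted p = 0.241) or 3 (adjusted p = 0.171) called it.

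A further list held splicing regulators labelled as opposed to ESRP1, though whether each of them opposes ESRP1 was not tested. Of its 13 genes, 11 were tested, 0 rose and 4 fell (median -0.20). These were the polypyrimidine tract binding proteins PTBP1 (-0.35, edgeR adjusted p = 0.0125) and PTBP2 (-0.32, adjusted p = 0.0302), SRSF1 (-0.35, adjusted p = 0.0130) and MBNL3 (-0.38, adjusted p = 0.0350). All 4 changes were small, and without replicate 3 none of the list was called. Without replicate 2, and with DESeq2, 2 of the list (PTBP1 and SRSF1) were called, and PTBP2 had an adjusted p of 0.0513 and 0.130.

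Mesenchymal and fibroblast genes moved in both directions. Of 32, 13 were tested, 7 of the others were at 0 in all libraries, 3 rose and 2 fell (median 0.12). ACTA2, the smooth muscle actin, had 12, 8 and 10 counts in DMSO and 85, 50 and 65 in SAL, without overlap (2.61, edgeR adjusted p = 6.63e-06). LOX, which cross-links collagen, had 8, 20 and 29 counts in DMSO and 41, 74 and 77 in SAL (1.63, adjusted p = 0.000381), and COL6A2 rose by 0.70 on the log2 scale (adjusted p = 0.00409). FN1, which encodes fibronectin, fell from 614, 4356 and 3371 CPM in DMSO to 338, 1830 and 1384 in SAL. FN1 fell by 1.13 on the log2 scale (edgeR adjusted p = 1.87e-06) and in 3 of 3 pairs. The groups overlapped, and replicate 1 was the lowest library in both. TNC, the matrix protein tenascin C, fell by 1.98 on the log2 scale (adjusted p = 2.83e-05) from 21, 168 and 67 counts to 7, 43 and 22. ACTA2 and LOX were under the filter's minimum in a DMSO library and TNC in a SAL library, so each was tested through the group where it was higher. COL6A2 was not called without replicate 3 (adjusted p = 0.0810).

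In the TGF-beta pathway, a signal that induces EMT in many epithelia, 3 of 18 tested genes rose and 3 fell (median 0.03). The type II receptor TGFBR2 had 3, 24 and 15 counts in DMSO and 11, 61 and 52 in SAL (1.39, edgeR adjusted p = 0.00436), and it was under the filter's minimum in a DMSO library, so it was tested through the group where it was higher. The corepressor TGIF1 (0.66, adjusted p = 0.00181) and the ubiquitin ligase SMURF2 (0.44, adjusted p = 0.0111) were the other genes that rose. The coreceptor TGFBR3 (-0.48, adjusted p = 0.0139), the signal transducer SMAD3 (-0.75, adjusted p = 0.0221) and the inhibitory SMAD7 (-0.82, adjusted p = 0.0401) fell. Without replicate 3 none of the 6 was called, with adjusted p from 0.0867 for TGIF1 to 0.578 for SMAD7, and DESeq2 called only TGIF1 and TGFBR2. SMAD7 (adjusted p = 0.0771) and TGFBR3 were also not called without replicate 2.

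Besides CDH1 and CDH2, 17 cadherins were listed and 3 tested. CDH26 fell (-0.87, edgeR adjusted p = 5.92e-05) from 386, 298 and 601 counts in DMSO to 193, 241 and 321 in SAL, without overlap of the levels. CDH24 fell by 1.23 on the log2 scale (adjusted p = 0.0125) at 15, 48 and 25 against 4, 27 and 13 counts, and it was not called without replicate 2 (adjusted p = 0.0693), without replicate 3 (adjusted p = 0.0846) or with DESeq2 (adjusted p = 0.0810). CDH24 was under the filter's minimum in a SAL library, so it too was tested through the group where it was higher. CDH3, which encodes P-cadherin and lies 9.82 kb from CDH1, had -0.87 on the log2 scale (adjusted p = 0.0644) and was not called. Of the other 14, 6 were at 0 in all libraries.

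RefSeq promoter windows around annotated starts (GRCh38.p14) were searched on both strands for the E-box CAGGTG or CACCTG, which SNAI and ZEB factors bind. Windows for KRT8 (1), VIM (1), CDH2 (2) and ZEB1 (7) were read. None was available here for CDH1, EPCAM, KRT18, SNAI2, TWIST1 or ESRP1, so the search does not cover their promoters. The E-box occurred in 2 of the 7 ZEB1 windows and in none of the others. Of all 35116 windows, 20.6% held it. The KRT8 window lies at a start upstream of that of the canonical transcript.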

How the data were processed

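RNA-seq was analysed for 6 C4-2 libraries, 3 DMSO and 3 SAL (1 nM R1881, 72 h), grouped and numbered by their labels. Per the methods of the study and the submitters' processing notes, total RNA libraries were made with a stranded kit, reads were trimmed, and the first read of each pair was mapped to hg19 with TopHat2 2.1.0 and Bowtie. The deposited values are raw counts per gene symbol, made by the authors with HTSeq 0.11.2 on exons of gencode v19, without strand, so antisense and overlapping genes can share or lose reads. Reads mapped to several places were not counted, 5.60% to 10.7% of all tallied reads, which affects genes with near-identical copies.

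Here 523 rRNA symbols were removed as in the study, genes were filtered with filterByExpr of edgeR 4.0.16 (R 4.3.3), and counts were normalized with TMM. The quasi-likelihood test compared the treatments with the replicate number as a block, since the study used a paired test, and p was adjusted by Benjamini-Hochberg over 16835 genes. The deviations of same-numbered libraries from their group means correlated at 0.886, 0.856 and 0.739 across these genes. CPM are relative to TMM-scaled library sizes, pair values subtract DMSO from SAL on the log2 CPM scale (prior count 2), and RPKM divide CPM by the exon length of GENCODE v44 lifted to GRCh37, newer than the authors' annotation. 6 libraries limit the precision, and the floor of 3 counts covers counting error only.

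The genes and lists were chosen with earlier results of these data known. All 10 genes are named and, of each list, up to 3 risen and 3 fallen genes with the smallest adjusted p, others where a count of 5 or fewer is itemised, with KLK3 as the treatment check. Some items are not reported here. The fit was tested on simulated data. Alternatives were DESeq2 1.42.0, its size factors, no block, 2 other filters, rRNA genes kept, mitochondrial genes removed, each replicate left out, a minimum log2 change, pseudogenes summed with KRT8 and KRT18 and the canonical transcript length, the last chosen after seeing the data.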

Additional observations from a re-analysis of the deposited data

How the results depend on the processing

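KRT8, KRT18 and SNAI2 stayed up-regulated in every alternative that gave them a value except the fit without the replicate block, which called 0 of the 10 genes. Of 71 values of the 7 tested genes under an alternative, 68 kept their direction and their side of the threshold, and 3 (those of KRT8, KRT18 and SNAI2 without the block) did not. SNAI2 had no value when at least 10 counts were required in every library. Leaving out each replicate in turn gave 2.40 to 2.51 for KRT8, 1.54 to 1.99 for KRT18 and 3.20 to 3.57 for SNAI2 on the log2 scale. Without the replicate block 18 of all genes were up-regulated and 3 down-regulated, 654 had an unadjusted p under 0.05 by edgeR, and of the related genes 0 rose and 0 fell. Leaving out each replicate gave 750 to 2443 up-regulated and 483 to 1955 down-regulated genes, and 11 to 39 and 4 to 20 related genes, with the lowest counts without replicate 3. DESeq2 called 1290 genes up-regulated and 950 down-regulated, and of the related genes 24 up-regulated and 8 down-regulated. A minimum absolute log2 fold change of 1 left 541 up-regulated and 345 down-regulated genes, and 8 and 3 related genes. The fits without a replicate use fewer samples. The cause of the other differences was not tested. ZEB1 and TWIST1 had a test only without the filter on low counts, which called neither, and CDH2 had 0 counts.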
